A study of Homo sapiens with 2 samples.

Results

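Splicing factor mRNAs encode the proteins that select exons and build the spliceosome. They were examined here by RNA bisulfite sequencing (RNA BS-Seq) in MCF10A, a non-tumorigenic human mammary epithelial cell line, and MDA-MB-468, a human breast cancer cell line. Genes were chosen by name, as protein-coding genes beginning with SRSF, HNRNP, SNRNP, SNRP, SF3A or SF3B. The rule uses no measured value, although it was set with earlier results of these data known. Every cytosine on their annotated exons, on the strand of the gene and with a coverage of at least 10, was a member. This gave 12718 of 1584002 kept cytosine sites of MCF10A, and 10026 of 1271253 of MDA-MB-468. Of 65 such genes in the annotation, 60 had a covered site in MCF10A, 55 had one in MDA-MB-468, and HNRNPA1L2, HNRNPA1L3, HNRNPCL1, HNRNPCL2 and SRSF12 had none in either line.

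Each line was represented by 1 library without replicates. Site calls were made within each library, and the test between the lines compares those 2 libraries and not the conditions. Both lines came from ATCC and no treatment is named for them, and the submitters' labels give DMEM as the medium of both, whereas the study's methods give different media for the 2 lines. Poly(A)-selected RNA of each was exposed to bisulfite at 60 degrees for 8 hours. Bisulfite turns unmodified cytosine into uracil, so a cytosine that stays unconverted is read as 5-methylcytosine (m5C), although a base protected in a folded stretch can also escape. The counts of the kept sites summed to 60580227 for MCF10A and 42429746 for MDA-MB-468. Of 17 genes used to check the lines, 9 were covered in MCF10A, and MDA-MB-468 covered 10. CDKN2A, which MCF10A is known to lack, had 0 covered sites there, while MDA-MB-468 had 194. SMAD4, which MDA-MB-468 is known to lack, had 157 for MCF10A and 0 for MDA-MB-468. Among epithelial markers, the keratin genes KRT8, KRT18, KRT19, KRT5 and KRT17 were covered in both lines, with 42 to 395 sites in MCF10A, while MDA-MB-468 had 174 to 401. EPCAM and CDH1 had 0 in MCF10A, where MDA-MB-468 had 175 and 108, and KRT14 had 0 in either line. The collagen gene COL1A1 had 267 in MDA-MB-468 alone. The endothelial and leukocyte markers PECAM1 and PTPRC had 0 in each.

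The SR proteins (SRSF genes) bind exonic enhancers through RNA recognition motifs and recruit the splicing machinery with a domain rich in arginine and serine. The hnRNPs coat nascent transcripts and often act against them. The small nuclear ribonucleoproteins hold a shared ring of Sm proteins (SNRPB, SNRPD1 and their relatives) around each U RNA, together with proteins particular to one particle (SNRNP genes), and the SF3A and SF3B subunits belong to the U2 particle that recognises the branch point. m5C in mRNA is placed mainly by the NSUN methyltransferases, with NSUN2 as the best described, and ALYREF and YBX1 are known readers of it.

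The m5C sites of these mRNAs lay in short stretches, and the stretches below are those that the results turn on. Each line holds 29 bases of GRCh37 in the direction of the mRNA. Capitals mark cytosines that were m5C sites in at least 1 line. The first group holds stretches with sites in both lines.
SRSF4 5′UTR: cgttgCCgCCgCCgCCgCtgCCgCcgtgc
SRSF4 CDS: agatctccatCCCgCtCCgtgtcaaagga
SRSF5 5′UTR: gcttcttcatggCCgCtCagatcgtgagC
SNRNP70 CDS: acggcgacgCtCCCgCtCCCgggaccggc
HNRNPAB CDS: gaggcgcgaCCgCggCgCCCCcgagcggg
HNRNPM CDS: gcatgggCCCtgccatgggCCCggccctg
SF3B2 CDS: aaagactcaaCCCggtCCCgtggctctga
HNRNPU CDS: taaaaaCatgCaaCtgtgagaCtgaagat
HNRNPA2B1 3′UTR: aggtaaCagaaCagCttCaggttatCgaa

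The next group holds stretches in which the 2 lines were called differently.
SF3A2 CDS: atgcaccctcaggCCCCgggggtccaccc
HNRNPA3 CDS: gactccggCCgtcgCcgtcgCcgccgggg
HNRNPA0 CDS: gaggCggacgCCgCCatggCCgCCtcgcc

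In order, the windows of the first group span chr1:29508332-29508360, chr1:29475166-29475194, chr14:70234013-70234041, chr19:49611145-49611173, chr5:177631960-177631988, chr19:8551084-8551112, chr11:65826388-65826416, chr1:245022076-245022104 and chr7:26231894-26231922. Those of the next group span chr19:2248348-2248376, chr2:178077564-178077592 and chr5:137089550-137089578. SRSF4, HNRNPU, HNRNPA2B1 and HNRNPA0 are read from the minus strand and the others from the plus strand. The GC content of the 31 nt around the sites was lowest in the HNRNPU stretch, at 33.9%, and next lowest in that of HNRNPA2B1, at 48.4%, and the other stretches ranged from 58.1% to 85.5%.

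In MCF10A, 171 of the 12718 sites were m5C sites, 1.34% (95% Wilson interval 1.16% to 1.56%). Across all kept sites of that library the share was 0.960%. In MDA-MB-468, 137 of 10026 were, 1.37% (1.16% to 1.61%), with 0.840% across all kept sites. A site was called when Fisher's exact test, run one-sided with the pooled counts of every kept site as the reference, gave a Benjamini-Hochberg adjusted p under 0.05. On nuclear protein-coding exons outside these genes the shares were 0.843% and 0.724%. Intervals here cover counting error in 1 library and treat neighbouring sites as independent, which they are not. The splicing factor sites were also more deeply covered, with a median of 28 for MCF10A and 27 for MDA-MB-468 against 18 over nuclear protein-coding exons in each line.

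Set beside protein-coding sites of like coverage, the share did not lie to one side. In MCF10A it was 0.998% against 0.687% at a coverage of 10 to 19, 1.30% against 0.907% at 20 to 49, 2.26% against 1.26% at 50 to 99 and 1.05% against 1.56% at 100 or more. In MDA-MB-468 the same classes gave 1.51% against 0.551%, 0.670% against 0.840%, 2.83% against 1.08% and 0.409% against 1.51%. Splicing factor sites were therefore above protein-coding sites in 3 of 4 classes for MCF10A and in 2 of 4 for MDA-MB-468, and below them at a coverage of 100 or more in each line.

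The unconverted share, which pools the counts of all sites, was 2.53% in MCF10A (2.49% to 2.57%) and 2.25% in MDA-MB-468 (2.20% to 2.29%) in splicing factor mRNAs. On the other nuclear protein-coding exons it was 1.94% and 1.72%. With the m5C sites left out it was 2.24% and 1.95% in splicing factor mRNAs, against 1.68% and 1.47% elsewhere. The cytosines that did not pass the test thus also kept a higher unconverted share than those of other mRNAs in both libraries.

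Where a sentence below gives a pair of values without naming the lines, MCF10A comes first and MDA-MB-468 second. At the coverage minimum of 10 the share of called sites was highest in the hnRNP and SR protein mRNAs. The hnRNP mRNAs held 112 of the 171 sites and 85 of the 137, which was 2.02% (1.68% to 2.42%) and 1.76% (1.43% to 2.17%) of their covered cytosines. SR protein mRNAs followed with 34 of 2054 in MCF10A, 1.66% (1.19% to 2.30%), and 27 of 1564 in MDA-MB-468, 1.73% (1.19% to 2.50%). Most of these lay in SRSF4 and SRSF5, with 21 and 10 in MCF10A and 18 and 9 in MDA-MB-468. For the particle-specific SNRNP mRNAs the counts were 13 of 1437, 0.905%, and 14 of 1220, 1.15%, of which SNRNP70 held 11 and 14. For SF3A and SF3B they were 12 of 2605, 0.461%, and 11 of 1664, 0.661%, with intervals that reached 0.803% and 1.18%. At a coverage minimum of 20 the order changed. The SNRNP share was then 1.40% beside 1.41% for SR proteins in MCF10A, while in MDA-MB-468 it was 1.89%, above the 1.26% of SR proteins. SF3A and SF3B then had 8 of 1528 and 0 of 952, and in MDA-MB-468 4 of 1511, 0.265%, when the sites covered in both lines were tested alone.

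In the mRNAs of the Sm proteins and the other SNRP genes, 0 of 1064 sites passed Fisher's exact test in MCF10A, and in MDA-MB-468 0 of 749 did. A count of 0 allows a share of up to 0.282% and 0.401%. At an unadjusted p under 0.05 there were 48 and 38 such sites, 4.51% and 5.07%, where all kept sites gave 4.32% and 3.51%. Restricting the test to sites with a coverage of at least 20 in MDA-MB-468 brought 2 of 510 SNRP sites past the threshold. Testing the sites covered in both lines alone brought 1 of 693 past it in that line. In MCF10A these settings gave 0 of 698 and 0 of 693. SNRPD2, a core Sm protein, had 81 and 80 covered sites with a median coverage of 145 and 84, and its highest methylation ratio was 7.14% and 9.09%. SNRPB, another Sm protein, had 234 and 222 covered sites with ratios up to 16.7% and 14.3%. SNRPA, the protein that binds stem-loop II of U1 RNA, had 230 and 146 with ratios up to 18.2% and 30%. SNRPE, another SNRP gene, had only 14 and 12 covered sites, at a median coverage of 76.5 and 15. Its unconverted share was 3.52% and 13.1%, the latter with an interval of 8.92% to 18.9%. Over all SNRP sites that share was 2.07% and 1.62%.

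**Figure D1:**
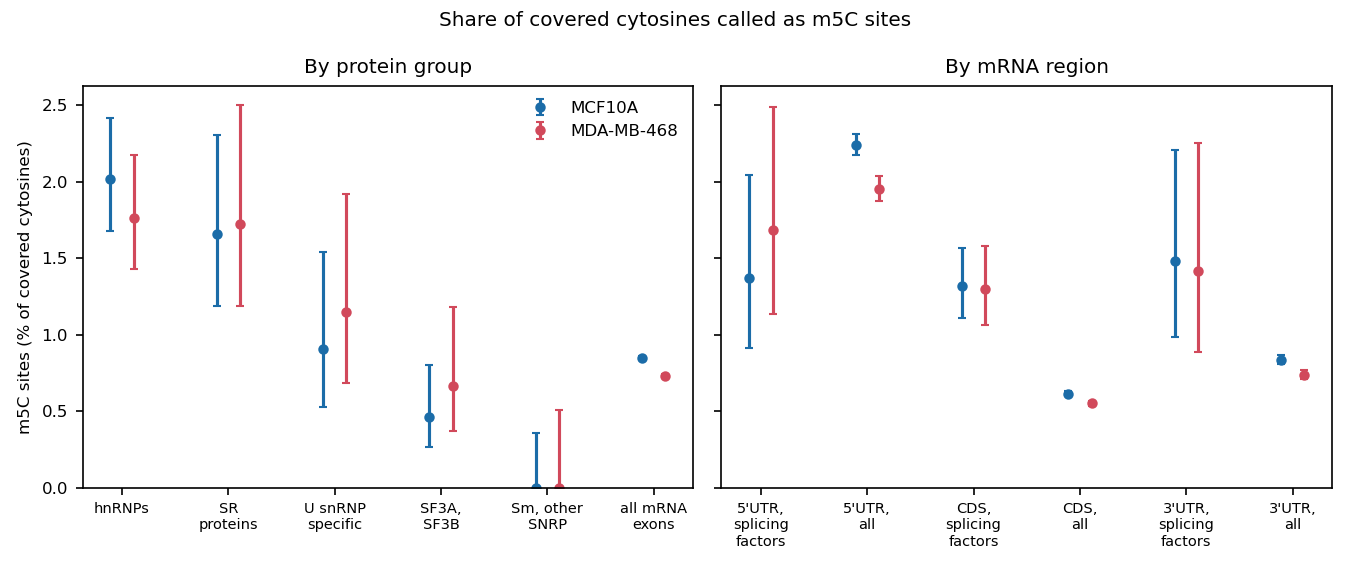
Share of covered cytosines called as m5C sites (vertical axis, percent), with 95% Wilson intervals, by protein group on the left and by mRNA region on the right, for 1 library of MCF10A (blue) and 1 of MDA-MB-468 (red). The hnRNP and SR protein mRNAs lie highest on the left and the SNRP mRNAs at 0, and on the right the splicing factor 5′UTR, CDS and 3′UTR shares lie between 1.30% and 1.68%, while those of all nuclear mRNAs are highest in the 5′UTR, at 2.24% and 1.95%, and lowest in the CDS.

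The intervals of the 3 mRNA regions overlapped in splicing factor mRNAs. Of their 5′UTR sites 1.37% (0.913% to 2.04%) and 1.68% (1.13% to 2.49%) were m5C sites. CDS sites gave 1.32% (1.11% to 1.57%) and 1.30% (1.06% to 1.58%), and 3′UTR sites 1.48% (0.988% to 2.21%) and 1.41% (0.885% to 2.25%). Over all nuclear protein-coding genes the 5′UTR held 2.24% and 1.95%, the CDS 0.615% and 0.551% and the 3′UTR 0.837% and 0.739%. The CDS interval of the splicing factors lay above the value of all mRNAs in both lines. Their 5′UTR interval lay below that value in MCF10A, while in MDA-MB-468 it included it. Without the genes that have a pseudogene named after them the direction turned, with 3.06% of 654 and 4.31% of 464 5′UTR sites called. The values of all mRNAs were not filtered in this way. These remaining sites still held the SRSF4 stretch and 2 SRSF5 stretches, of 4 and of 3 cytosines, all called in both lines. Of all splicing factor 5′UTR sites, 23 and 24 were m5C sites, and 12 in each line belonged to the one SRSF4 stretch printed above.

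At least 1 m5C site was found in 17 of 60 covered genes in MCF10A (28.3%) and in 19 of 55 in MDA-MB-468 (34.5%), where 21.1% and 16.9% of all nuclear protein-coding genes with covered sites had one. The splicing factor genes had more covered sites, with a median of 170 and 138 per gene against 99 and 80. Among genes with 200 to under 400 covered sites, 12 of 19 and 10 of 14 splicing factor genes held an m5C site, where 36.0% and 33.3% of all protein-coding genes did. At 400 or more covered sites it was 4 of 7 and 5 of 6, where 62.0% and 59.9% of all did, and at 100 to under 200 it was 1 of 15 and 2 of 12, where 21.4% and 17.9% did. Of the 55 genes covered in both lines, 14 had an m5C site in each, and 22 of 60 genes had one in either line. By group, a site was found in 10 of 21 and 13 of 20 hnRNP genes, 3 of 11 and 2 of 10 SR protein genes, 2 of 7 and 1 of 6 SNRNP genes, 2 of 9 and 3 of 9 SF3A or SF3B genes, and 0 of 12 and 0 of 10 SNRP genes.

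**Figure D2:**
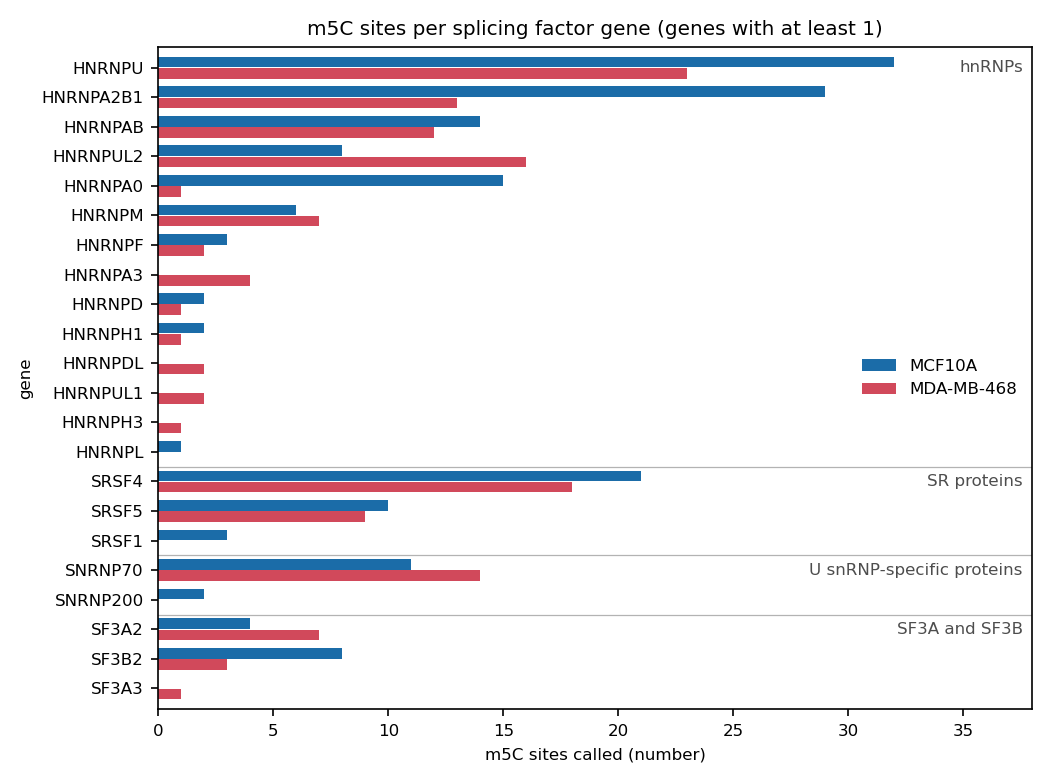
Number of m5C sites called per gene (horizontal axis) for the 22 splicing factor genes with at least 1, grouped by protein family, in 1 library of MCF10A (blue) and 1 of MDA-MB-468 (red). HNRNPU (32 and 23), HNRNPA2B1 (29 and 13) and SRSF4 (21 and 18) have the longest bars, and no SNRP gene appears.

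Among hnRNPs, HNRNPU, a nuclear matrix protein that binds RNA and chromatin, had the most m5C sites, 32 of 548 and 23 of 405. The 4 cytosines capitalised in its window lie in the CDS. They had methylation ratios of 57.1%, 42.1%, 40.9% and 40.9% at a coverage of 19 to 22 in MCF10A. In MDA-MB-468 all 4 stood at 9 of 10 unconverted, 90.0% (59.6% to 98.2%). No splicing factor site had a higher ratio in MDA-MB-468, and these rest on 10 counts each. The highest ratio in MCF10A was also in HNRNPU, 8 of 10 or 80% at chr1:245022041 in the CDS, which was not covered in MDA-MB-468. The other HNRNPU stretches with sites in both lines lay further upstream in its GC-rich coding sequence and were lower, for example 17.0% to 23.6% for MCF10A and 12.5% to 22.2% for MDA-MB-468 at chr1:245027002-245027009.

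HNRNPAB, an RNA-binding protein of the A and B hnRNP class, held 14 of 338 sites and 12 of 342. Its cytosine at chr5:177631975 had the highest ratio of any splicing factor site with a coverage of at least 20 in either line, 36 of 60 or 60.0% (47.4% to 71.4%) for MCF10A and 40 of 71 or 56.3% (44.8% to 67.3%) for MDA-MB-468. The cytosine 3 bases before it, at position 177631972, stood at 56.9% and 52.9%. In a neighbouring stretch at chr5:177631943-177631951, position 177631946 stood at 57.1% and 50%. At each of these 3 cytosines the interval of one line held the value of the other.

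HNRNPA2B1, a reader of RNA signals and regulator of alternative exons, had 29 of 294 sites and 13 of 312. Its 3′UTR stretch at chr7:26231889-26231927, of which the middle is printed above, had 9 of 9 cytosines called in both lines. Their ratios ran from 17.2% to 37.5%, with a median of 30.8%, in MCF10A and from 14.7% to 43.8%, with a median of 24.0%, in MDA-MB-468. Coverage there was 15 to 34. A CDS stretch at chr7:26236556-26236570 had 5 of 5 called in MCF10A, at 11.9% to 27.3% of 32 to 59 counts. In MDA-MB-468 0 of these 5 were called, at 10% to 17.4% of 23 to 30 counts. The missing calls of this CDS stretch came at lower coverage. In the 3′UTR, chr7:26231662-26231666 had 3 of 3 called in MCF10A, at 28.6% to 31.25% of 14 to 16 counts. In MDA-MB-468 these 3 stood at 7.69% of 13 counts, with 0 called. The CDS sites chr7:26233226 and chr7:26233237 were called in MDA-MB-468 only, at 187 and 237 counts against 81 and 98 in MCF10A. HNRNPA2B1 thus held sites called in both lines and in either line only. The part of coverage in this was not tested.

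HNRNPUL2, a relative of HNRNPU, held 8 of 462 sites and 16 of 535. A run of 5 cytosines in its 3′UTR at chr11:62482709-62482713 stood at 54.5% at a coverage of 11 in MDA-MB-468 and was not covered in MCF10A. The read-through gene HNRNPUL2-BSCL2 added 106 and 209 sites, all on exons of BSCL2, with 0 m5C sites by Fisher's exact test. HNRNPM, which binds GU-rich RNA, had 6 and 7 sites. Its printed stretch had 6 of 6 capitalised cytosines called in both lines, at 22.9% to 32.4% for MCF10A and 15.9% to 22.1% for MDA-MB-468. HNRNPR, a close relative of SYNCRIP, had 0 among 263 and 121 sites, with ratios up to 20% and 21.4%.

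Among SR proteins, SRSF4 stood first with 21 of 287 sites and 18 of 257. In its 5′UTR, near the transcript start, all 12 covered cytosines of the CCG repeat at chr1:29508337-29508355 were called in both lines. They ranged from 30.8% to 46.2% with a median of 41.7% in MCF10A and from 30.8% to 81.8% with a median of 66.7% in MDA-MB-468. Each rested on 11 to 13 counts, and the ranges overlapped. In its CDS, the stretch at chr1:29475177-29475184 was better covered, 42 to 78, with 6 of 6 cytosines called in MCF10A at 17.3% to 28.8% and 5 of 6 in MDA-MB-468, where the values were 9.52% to 26.9%.

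SRSF5, which with other SR proteins promotes exon inclusion, had 10 of 254 sites and 9 of 214. Its 5′UTR stretches had 4 of 4 and 3 of 3 cytosines called in both lines. The first, at chr14:70234025-70234030, ran from 21.7% to 38.5% for MCF10A and from 20% to 35.0% for MDA-MB-468. SRSF1, the founding SR protein, had 3 sites in MCF10A, at 26.7% to 36.4% in its 3′UTR, and 0 of 230 in MDA-MB-468, where 1 of these 3 positions was covered, at 1 of 10. Another annotated gene shares most SRSF1 exons, so that 293 of its 333 sites in MCF10A could belong to either, but none of the m5C sites did. SRSF2, which binds exonic enhancers, had 0 among 317 and 305 sites with ratios up to 18.2% and 20%, and SRSF11, a U2AF-interacting SR-related protein, 0 among 190 and 144.

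Among particle-specific proteins, SNRNP70, the U1-70K protein, held 11 of 389 sites and 14 of 371. Its stretch at chr19:49611154-49611164 in the CDS had a coverage of 52 to 61 in MCF10A, while MDA-MB-468 had 84 to 91. All 8 cytosines were called in both lines, with ratios of 24.1% to 36.8% (median 35.6%) for MCF10A and 19.5% to 30.95% (median 27.3%) for MDA-MB-468. Farther along, position 49611293 stood at 46.2% (28.8% to 64.5%) and 31.7% (19.6% to 47.0%). SNRNP200, the helicase that unwinds U4 from U6, had 2 of 869 sites and 0 of 752, the lowest share of the genes with any in MCF10A. SNRNP40 and SNRNP35, proteins of the U5 and U11/U12 particles, had none.

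In the U2 complexes, SF3B2, a subunit of the SF3B complex, held 8 of 558 sites and 3 of 522. Its printed stretch had 6 of 6 capitalised cytosines called in MCF10A, at 24.0% to 40.0%. In MDA-MB-468 3 of the 5 covered ones were called, and the 5 had a coverage of 10 to 12 and ratios of 20% to 36.4%. SF3A2 had 4 of 374 and 7 of 417. Its calls in MCF10A lay at chr19:2248361-2248364, at 36.4% to 53.8% of 11 to 13 counts, where MDA-MB-468 had 0.00% to 11.8% of 16 to 18. Its calls in MDA-MB-468 lay in other stretches that MCF10A did not cover. SF3A3 had 1 site, at 4 of 17 in MDA-MB-468. SF3B1, the subunit most often mutated in myeloid neoplasms, and SF3B3 had no site past the threshold. SF3B1 had 420 and 82 covered sites with ratios up to 20% and 10%, and SF3B3 had 500 and 142 with ratios up to 15.4% and 10%.

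**Figure D3:**
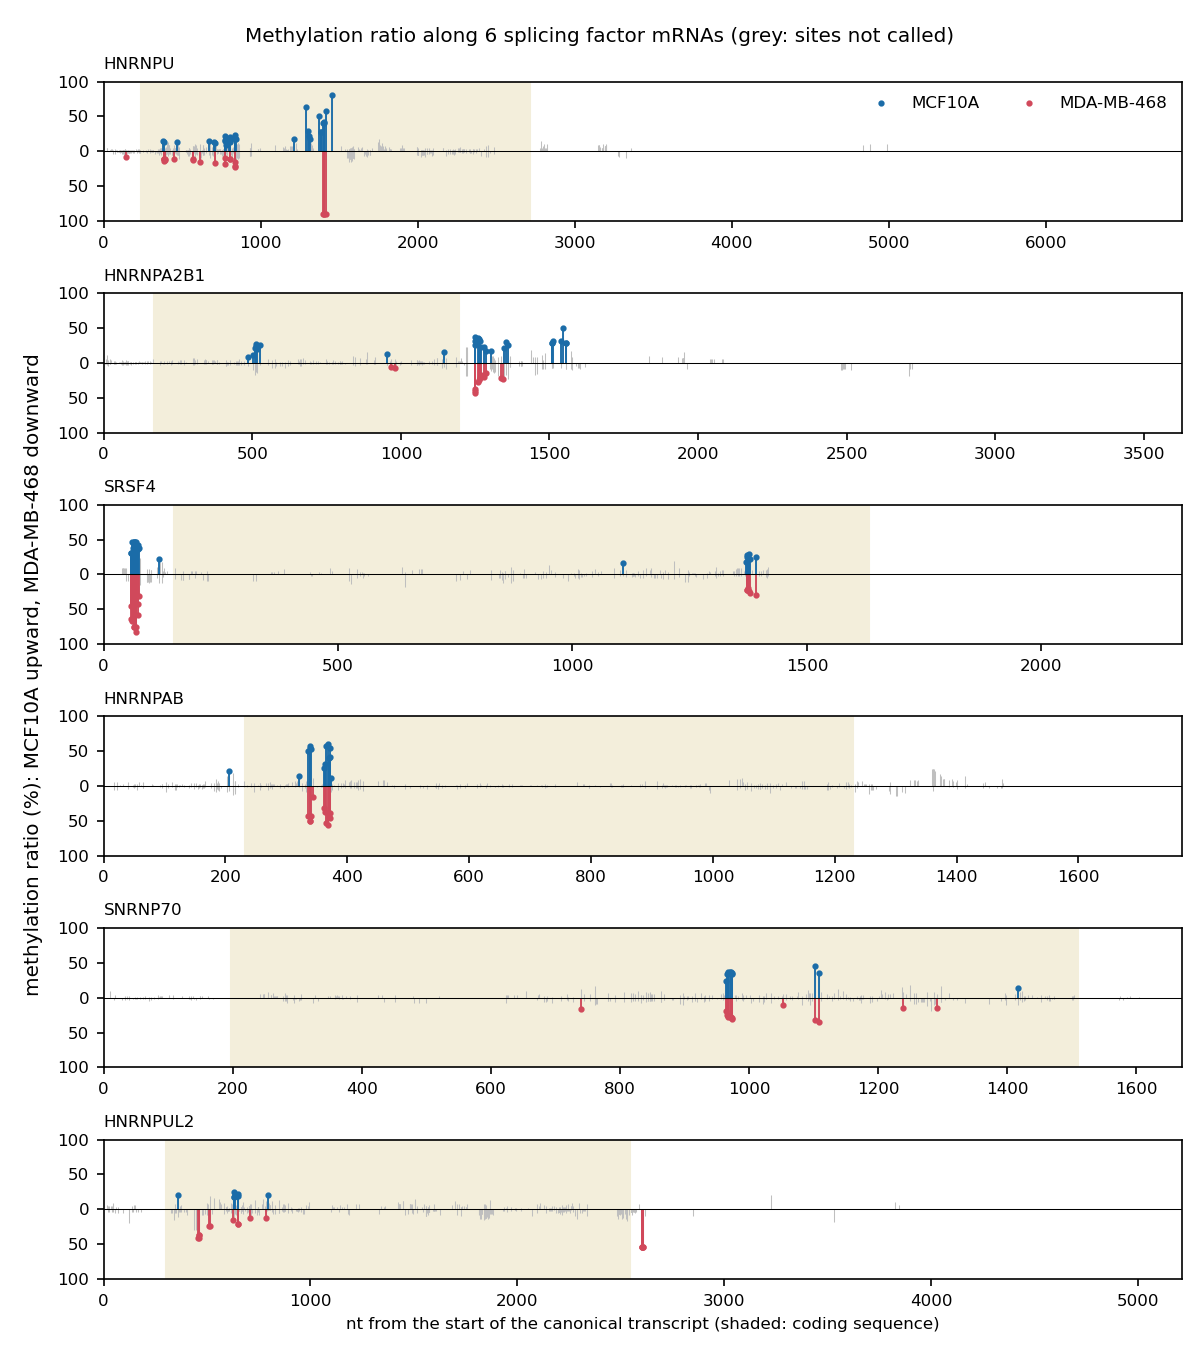
Methylation ratio of each covered cytosine (vertical axis, percent, MCF10A upward in blue and MDA-MB-468 downward in red) against distance in nt from the start of the canonical transcript for the 6 genes with most m5C sites, with sites that were not called in grey and the coding sequence shaded. Called sites stand in a few narrow groups per mRNA, such as the 12 near the start of SRSF4 and the 8 of SNRNP70, which recur in both lines, between long runs of grey sites near 0.

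The sites were clustered. In MCF10A 141 of the 171 m5C sites, 82.5% (76.1% to 87.4%), had another within 10 nt, and in MDA-MB-468 115 of 137, 83.9% (76.9% to 89.1%). All nuclear m5C sites gave 86.2% and 86.8%, so the clustering of splicing factor sites was near that of the libraries as a whole. Of the sites, 30 and 22 stood alone. Stretches of 3 or more sites numbered 23 and 18. Within them 121 of 124 covered cytosines, 97.6%, and 95 of 100, 95%, were called, and in 21 and 16 stretches every covered cytosine was. Neighbouring cytosines can lie on the same reads, and the 4 HNRNPU positions had equal counts of 9 of 10, so a stretch does not count as that many independent observations.

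Sequence and predicted structure differed between called and other sites. The 31 nt around an m5C site had a median GC content of 71.0% for MCF10A and 77.4% for MDA-MB-468, against 58.1% around the other splicing factor sites in each line. The median pairing probability at 70 degrees, taken as the highest over a gene's transcripts, was 0.751 and 0.9001 against 0.583 and 0.599. In the maximum expected accuracy (MEA) structure 64 of 171 m5C sites, 37.4%, and 66 of 137, 48.2%, were paired, against 13.9% and 14.9% of the other sites. The stretches were not all alike in this. The SNRNP70 stretch had a median pairing probability of 0.985 with 8 of 8 sites paired in the MEA structure, whereas HNRNPU, SRSF4 5′UTR and HNRNPA2B1 3′UTR stretches had 0.219, 0.403 and 0.392, with 0, 2 and 0 paired sites.

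When sites paired in the MEA structure were left out, 107 of 10908 sites, 0.981%, and 71 of 8491, 0.836%, were called. The 0.960% and 0.840% of all kept sites above include paired sites and mitochondrial sites. Nuclear protein-coding exons outside these genes gave 0.843% and 0.724%, also with paired sites included. The SF3A and SF3B group then kept 2 and 1 m5C sites, and the hnRNPs 83 and 53. The part of protection by structure in any single site was not tested.

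By trinucleotide, CCG had the highest share of called sites, with 27 of 729 called in MCF10A, 3.70%, and 31 of 630 called in MDA-MB-468, 4.92%. All protein-coding CCG sites gave 2.31% and 1.92%. GCC gave 2.57% and 3.32%, where all protein-coding GCC sites gave 1.62% and 1.34%. The motif CNGGG, which resembles the NSUN2 context, was searched in the genome sequence on the strand of the mRNA only, with the first C as the site. It fitted 381 and 337 splicing factor sites, 2.996% and 3.36% of them, as it did 3.19% and 3.50% of all nuclear protein-coding sites. Of these, 17 and 16 were m5C sites, 4.46% (2.80% to 7.03%) and 4.75% (2.94% to 7.57%), against 2.17% and 1.82% of all such protein-coding sites. The motif CTCCA, which resembles the NSUN6 context, fitted 72 and 49 sites, 0.566% and 0.489%, as against 0.620% and 0.606% of all. None of them passed the Fisher's exact test, which allows up to 4.17% and 6.12%. Of all protein-coding sites in that motif, 0.627% and 0.481% did. A match here describes letters only.

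In the first 50 nt of a protein-coding transcript 0 of 572 splicing factor sites passed Fisher's exact test in MCF10A, which allows up to 0.524%. In MDA-MB-468 3 of 434 passed, 0.691% (0.235% to 2.01%), and all protein-coding sites in such windows gave 2.18% and 2.11%. Within 50 nt of the start codon of a canonical transcript the counts were 2 of 959, 0.209% (0.0572% to 0.757%), and 5 of 711, 0.703% (0.301% to 1.64%), against 2.0001% and 1.80% of all.

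Between the lines, 9105 sites were covered in both. Of these 150 were m5C sites in MCF10A, 120 were in MDA-MB-468, and 84, in 11 genes, were called in both. The shared sites made up 56.0% of the MCF10A calls and 70% of the MDA-MB-468 calls. Over all nuclear sites covered in both lines the shares were 48.2% and 63.0%. A further 21 MCF10A sites and 17 MDA-MB-468 sites were not covered in the other line.

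No splicing factor site passed a two-sided Fisher's exact test between the libraries after Benjamini-Hochberg adjustment over 812729 sites, where 0.0893% of all sites did. At an unadjusted p under 0.05 there were 105, 67 higher in MCF10A, 38 higher in MDA-MB-468, which was 1.15% of the sites against 1.14% of all. The closest was the HNRNPA2B1 cytosine at chr7:26233252 in the CDS, with 11 of 84 unconverted, 13.1%, against 5 of 205, 2.44%, with an exact p = 0.000841 that became 0.560 after adjustment. Next was the SF3A2 cytosine at chr19:2248364, with 7 of 13 against 0 of 16, with an exact p = 0.00110 that became 0.683 after adjustment. The third was in the HNRNPU 5′UTR at chr1:245027703, with 2 of 200 against 9 of 105, with an exact p = 0.00148 that became 0.842 after adjustment.

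At a coverage of 20 in each line a site needed at least 13 unconverted reads against 0 to pass over all sites, and at 100 it needed 15. HNRNPA0, a relative of HNRNPA1 with a single coding exon, had more called sites in MCF10A. Its printed stretch had 9 of 9 capitalised cytosines called in MCF10A, at 7.80% to 12.6% of 140 to 176 counts, and 1 in MDA-MB-468, at 4.69% to 10.3% of 57 to 70. Over the gene there were 15 of 303 and 1 of 213 sites, and the unconverted share was 2.54% and 2.51%. HNRNPA3, a member of the same family, went the other way, with 0 of 93 and 4 of 67 sites, the 4 at 25.0% of 16 counts in MDA-MB-468 and at 0.00% to 6.90% of 24 to 30 in MCF10A. Annotated pseudogenes named after HNRNPA3 number 16, and reads from them may not be separable.

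**Figure D4:**
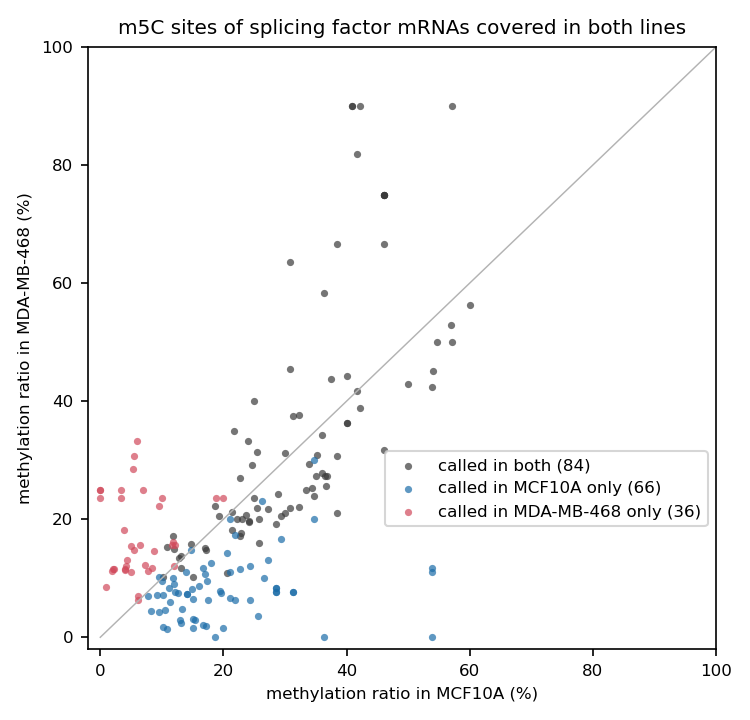
Methylation ratio (percent) in MCF10A (horizontal axis) and MDA-MB-468 (vertical axis) of the splicing factor cytosines covered in both lines and called in at least 1, with the line of equal ratios. The 84 sites called in both (grey) reach 60.0% on the horizontal and 90.0% on the vertical axis, where the HNRNPU sites lie, and the 66 called in MCF10A only (blue) and 36 in MDA-MB-468 only (red) reach 53.8% and 33.3% in the line that called them.

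Coverage itself differed for some members. HNRNPLL, SNRNP25, SNRPA1, SRSF10 and SNRPN were covered in MCF10A only. For the first 4 of these the MDA-MB-468 table held 33 to 57 sites below the minimum, with coverage up to 9. For SNRPN, an imprinted Sm protein gene, it held 0, while MCF10A had 163 sites with a median coverage of 26. Fewer transcripts and less sequencing of a gene cannot be told apart in these counts.

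Other spliceosome genes outside the name rule were set beside them from a list of 70, such as U2AF, PRPF and LSM genes. Of these 68 and 61 were covered, and 15 and 11 had an m5C site, 22.1% and 18.0%. Their sites were called at 140 of 15893, 0.881% (0.747% to 1.04%), and 66 of 12669, 0.521% (0.410% to 0.662%), below the 1.34% and 1.37% of all splicing factor sites taken as one group. PTBP1, a repressor of exon inclusion, held 57 and 12 of these sites, SRRM2, a large scaffold of nuclear speckles, 21 in each line, and SF1, the branch point binding protein, 18 and 15.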

How the data were processed

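RNA BS-Seq of MCF10A and MDA-MB-468 was analysed, 1 library each. The deposited tables hold, for each cytosine, counts of unconverted and converted reads, made by the authors on hg19. The paper's methods name Trim Galore and MeRanTK, with a base quality of at least 30, and the submitters' processing notes name Trim Galore and Bismark. Their versions are not given in the sources used here. The deposited counts start at a coverage of 5 and include cytosines paired in the structures predicted here, so the coverage filter of 10 and the structure filter described in the paper were not seen in them. Depth varied from site to site, with a median coverage of 18 over kept sites. A call took at least 4 unconverted reads of 10, or 6 of 50. PCR duplicates without molecular identifiers are not independent, so intervals cover counting error only.

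Sites were kept at a coverage of at least 10 where they lay on the strand and exons of a basic transcript (GENCODE release 44 lifted to GRCh37). Mitochondrial sites entered the background alone. The member genes had 255 such transcripts. A site in several regions counted as 5′UTR before CDS before 3′UTR. Sites were called with Fisher's exact test, one-sided, with the pooled kept counts as reference and Benjamini-Hochberg adjustment at 0.05, and the 2 lines were compared by Fisher's exact test, two-sided. Pairing was predicted with ViennaRNA 2.7.2 at 70 degrees and a pairing distance of 150. Full transcripts were too slow for RNAfold, so MEA structures (gamma 0.1) were folded in windows of 1000 nt with a step of 500, which differs from the methods. RNAplfold used a window of 300 nt. Python 3.11.15, scipy 1.17.1, pandas 2.3.3, numpy 2.4.6, pysam 0.24.0 and matplotlib 3.10.9 were used. The tests were run on simulated counts, drawn independently for each site over a uniform background rate. Such counts lack the clustering of these sites, so they do not give the error rates of the calls here.

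Genes named in the text were, per group, up to 5 with the most m5C sites and up to 2 of the best covered with none. SNRPD2, SNRPE, HNRNPM and HNRNPA3 were named after their values were seen, as were the genes covered in 1 line. Sites were those of highest ratio at a coverage of at least 20 and those called in both lines with the highest lower ratio. The stretches printed were chosen after the calls were seen. The members and gene lists were chosen with earlier results of these data known. Alternatives changed the coverage minimum, background, test, structure filter, ratio, region priority and the sites or genes kept.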

Additional observations from a re-analysis of the deposited data

How the results depend on the processing

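No paired analysis was possible because each line has 1 library. The nuclear background (173 sites in MCF10A, 139 in MDA-MB-468) and the binomial test (171 and 137) changed little. Set beside the main shares of 1.34% and 1.37%, some alternatives raised the share and others lowered it. A coverage minimum of 20 gave 136 of 8308 sites, 1.64%, and 92 of 6375, 1.44%. Leaving out sites paired in the MEA structure left 107 and 71 m5C sites, 0.981% and 0.836% of the sites kept. Leaving out a pairing probability over 0.5 left 42 of 5094, 0.824%, and 30 of 3827, 0.784%, in 9 and 8 genes. Leaving out genes with a pseudogene named after them, 32 of 60 covered genes, left 104 and 76 sites in 8 genes in each line. Counting isolated sites only, an alternative added after the data were seen, left 30 and 22 sites, in 12 genes in MDA-MB-468. The unconverted share in MCF10A became 2.46% with a coverage minimum of 20, 2.39% without MEA-paired sites and 2.29% without sites of pairing probability over 0.5. In MDA-MB-468 it became 2.10%, 2.08% and 2.04%, and 2.30% without the genes with pseudogenes. The share of 5′UTR sites that were m5C sites became 0.823% and 0.850% at a coverage minimum of 20, which the SRSF4 5′UTR stretch, at 11 to 13, does not reach. It became 3.06% and 4.31% without the genes with pseudogenes, above the 2.24% and 1.95% of all mRNAs, which were not filtered for pseudogenes. In MDA-MB-468 it became 1.12% without MEA-paired sites. Of sites that differ between lines, 0 passed in the other settings run. With the adjustment over sites called in at least 1 line the count was 4, but each of these was called only in the line where it was higher, so that choice of sites depends on the difference tested and the count supports no difference. Structure was predicted for splicing factor transcripts only, so the calls were not repeated over all genes. With 1 library per line the spread between cultures is unknown, and at low coverage low ratios could not be called.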
